A study of Mus musculus with 10 samples.

Results

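Epithelial-mesenchymal transition (EMT) regulators and mesenchymal markers were examined as a set of 10 genes, namely Vim, Snai1, Snai2, Twist1, Zeb1, Zeb2, Cdh2, Fn1, Esrp1 and Esrp2, out of 19096 genes that could be named on the arrays. The genes were listed by name, and each was represented by its probe with the highest mean over the 10 arrays. Total RNA was taken from 5 whole wild-type (WT) lungs and from 5 squamous cell carcinomas (SCC) of the lung and was measured on single-colour Agilent whole-mouse-genome arrays, 1 array per sample. WT mice carried floxed Lkb1 alleles without Cre (Lkb1f/f), and tumours came from CCSPiCreLkb1f/f mice, in which the CCSP promoter of airway secretory cells drives iCre and deletes Lkb1, a kinase gene and tumour suppressor. The labels give B6.129 as the strain of all mice, which were aged 13 months and received no treatment. Both groups therefore share the floxed allele and the strain, while Cre, Lkb1 loss and tumour tissue come together in the other group. The promoter directs this Cre to airway epithelial cells, and its activity in stromal, vascular and immune cells of the tumours was not measured.

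In EMT, epithelial cells loosen their junctions and take on features of mesenchymal cells. The transcription factors Snai1, Snai2, Zeb1, Zeb2 and Twist1 are known to drive it, and the SNAIL and ZEB proteins bind E-box sequences and repress the E-cadherin gene Cdh1. Esrp1 and Esrp2 are splicing regulators of epithelial cells, Vim encodes the intermediate filament protein vimentin, Fn1 the matrix protein fibronectin and Cdh2 N-cadherin. In a normal lung several of these genes are also expressed by fibroblasts, endothelial cells and leukocytes, so they do not mark EMT alone.

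E-boxes were sought in the promoters of the set because SNAIL and ZEB factors recognise them. The letters searched were CAGGTG and CACCTG, which are reverse complements of each other, so both strands were covered. The RefSeq table of promoters (GRCm38.p6) held 4 of the 10 genes, with 7 promoters between them. In the 250 bases before the transcription start, Snai1 held 1 such match, which began 126 bases before the start. Vim, Twist1 and the 4 starts of Zeb2 held none. Of all 32851 promoters in the table, 17.2% held at least 1 match in a window of that length. Of the promoters searched for the set only Snai1 held a match, and Vim is shown for contrast as a marker gene without one. The promoters of Snai1 (chr2:167537945-167538194, plus strand, GC content 70%) and Vim (chr2:13574061-13574310, plus strand, GC content 58.4%) are given with the E-box in capitals.
Snai1: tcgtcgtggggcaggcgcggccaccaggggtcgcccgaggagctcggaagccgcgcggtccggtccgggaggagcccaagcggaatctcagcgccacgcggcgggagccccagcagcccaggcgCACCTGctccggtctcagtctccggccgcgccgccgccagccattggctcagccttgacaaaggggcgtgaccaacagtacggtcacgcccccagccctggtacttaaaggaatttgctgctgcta
Vim: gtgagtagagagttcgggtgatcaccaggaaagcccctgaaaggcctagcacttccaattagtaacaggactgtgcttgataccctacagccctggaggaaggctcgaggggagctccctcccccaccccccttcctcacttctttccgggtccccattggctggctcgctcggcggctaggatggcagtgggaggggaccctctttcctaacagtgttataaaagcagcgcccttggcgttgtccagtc

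Signals are log2 values after quantile normalization, and differences are SCC minus WT, so that 1 unit is a 2-fold change. A probe was called when its limma adjusted p was below 0.05 and the difference at least 2-fold. Of 30374 tested probes, 22.9% were called, 9.92% higher and 13% lower in SCC. The squamous marker list (Krt5, Krt14, Trp63, Krt6a, Dsg3, Sox2) matched the tumour label, with a mean level of 5.03 to 5.39 on WT arrays and 11.63 to 14.35 on SCC arrays, and Krt6a and Dsg3 were not well above background in any WT lung. SCC replicate 2 was the lowest of the tumours on that list, at 11.63 against at least 14.03 on the others. SCC replicate 5 had 90.2% of probes well above background, against 71.0% to 74.5% on the other arrays. The results below were also computed without each of these arrays. The labels do not say that the samples of a group came from different animals, and p-values measure only the spread between these samples.

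Of the 10 genes, 9 were measured well enough to be tested. Of these 9, 4 were called, Esrp1 and Esrp2 higher and Zeb1 and Cdh2 lower in SCC. The count was 3, without Cdh2, with normexp background correction, with slide as a fixed block or when every array had to be above background. It was 5 when the next-brightest probe stood for genes with several. All 9 passed the adjusted p alone, 3 higher and 6 lower, where 49% of all tested probes did so, 22.4% higher and 26.6% lower. In all 9 the 5 SCC values lay entirely above or below the 5 WT values. This held for 37.4% of all tested probes, 16.3% higher and 21% lower in SCC. Cdh2 was tested through its WT level and was above background in only 3 of 5 tumours. Its part in these counts therefore rests in part on tumour values at background. The median difference of the 9 genes was -0.53, against -0.09 over all tested probes. When arrays were scaled to their 75th percentile instead, the median of all probes moved by 0.116, to 0.026, and called probes were 3472 higher and 3097 lower in place of 3014 higher and 3940 lower, so the balance of directions over all probes depends on the scaling. The directions of the 9 genes were unchanged by it.

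**Figure D1:**
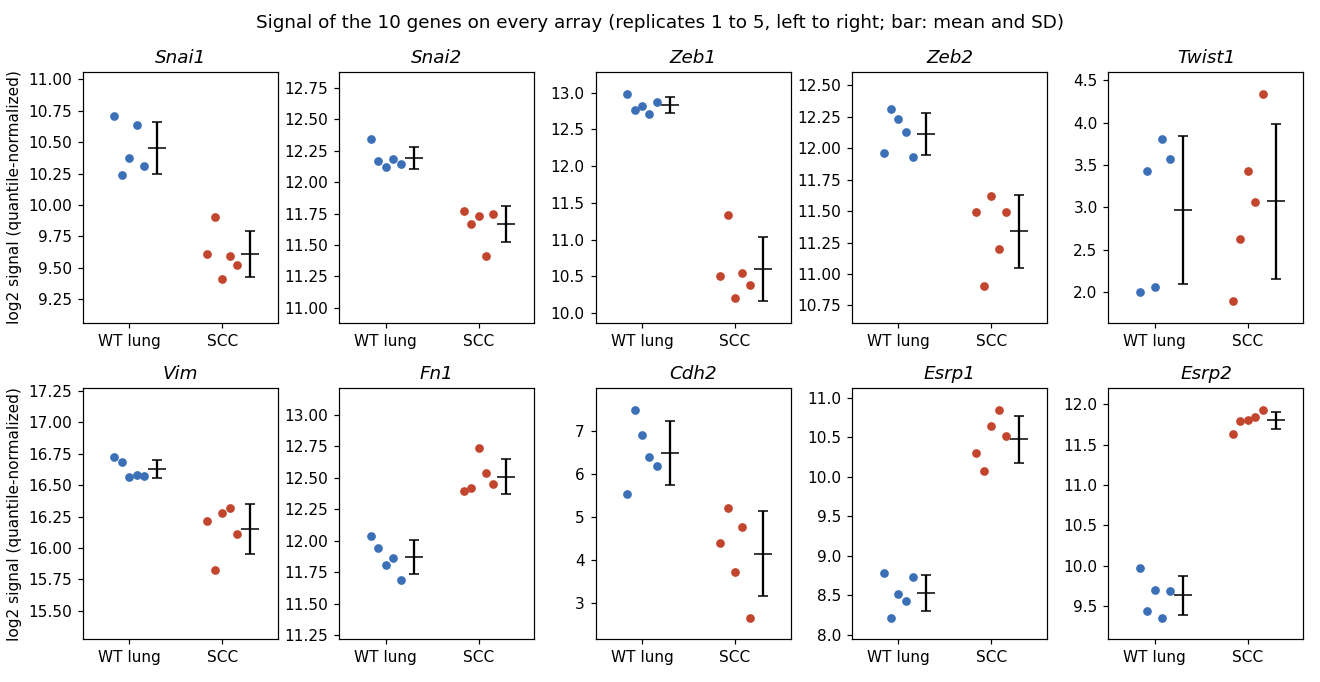
Log2 quantile-normalized signal of the 10 genes on each array, 1 panel per gene with its own axis range (axes do not start at 0), blue for WT lungs and red for SCC, each point 1 array and the bar the mean and SD of 5 arrays. Esrp1, Esrp2 and Fn1 lie higher in SCC, the groups of Twist1 overlap, and the other 6 genes lie lower.

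Esrp1 and Esrp2, the splicing regulators that maintain epithelial exon choices, were both higher in SCC. The Esrp1 signal was 8.78, 8.22, 8.51, 8.43 and 8.72 in the WT lungs and 10.31, 10.07, 10.65, 10.85 and 10.51 in the tumours. Every tumour was above every lung, and the gap between the groups was 1.29. The difference was 1.94 (SE 0.17, 3.85-fold, limma adjusted p = 2.06e-05). The Esrp2 signal was 9.98, 9.44, 9.70, 9.36 and 9.69 in the WT lungs and 11.64, 11.79, 11.81, 11.84 and 11.93 in the tumours. The tumours were closer to each other (SD 0.106) than the lungs were (SD 0.244). The difference was 2.17 (SE 0.13, 4.49-fold, limma adjusted p = 2.83e-06). Markers of epithelial cells were higher in SCC beside both genes. Of 5 (Epcam, Cdh1, Krt8, Krt18, Krt19), 4 passed as higher, and their mean level was 13.70 to 14.09 in WT and 14.65 to 15.61 in SCC. Most alveolar and club cell markers went the other way, and ciliated cell markers did so no more often than all probes. Of 4 alveolar type 1 markers 3 passed as lower and 1 as higher, of 5 alveolar type 2 markers 3 passed as lower, all 3 club cell markers passed as lower, and of 4 ciliated cell markers 1 did, with none of these last 3 lists holding a gene that passed as higher. Among the tumours, SCC replicate 2 was the highest on the general epithelial list and the lowest for Esrp1. The part of these lists in the result was not tested. In bulk tissue, more or fewer cells of a type and more or less RNA per cell cannot be told apart.

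Zeb1 showed the larger change of the ZEB repressors. Its signal was 12.98, 12.77, 12.82, 12.71 and 12.88 in the WT lungs and 10.50, 11.34, 10.21, 10.55 and 10.39 in the tumours. The lungs differed little among themselves (SD 0.105), whereas SCC replicate 2 stayed above the other tumours. The difference was -2.24 (SE 0.19, 4.71-fold lower, limma adjusted p = 2.14e-05), and -2.42 without SCC replicate 2.

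Zeb2, which is also expressed by macrophages and other leukocytes, was lower as well. Its brightest probe gave 11.96, 12.32, 12.24, 12.13 and 11.93 in the WT lungs and 11.49, 10.90, 11.62, 11.20 and 11.49 in the tumours. On this probe SCC replicate 2 was the lowest tumour, opposite to its place in Zeb1. The difference was -0.77 (SE 0.15, 1.71-fold lower, limma adjusted p = 0.00221), short of a 2-fold change. The other probes of Zeb2 gave -1.001 (SE 0.15, limma adjusted p = 0.000449) and -1.36 (SE 0.10, limma adjusted p = 8.69e-06), both of them called, so the size of the Zeb2 change depends on the probe while its direction does not. The place of SCC replicate 2 depended on the probe too, since it was the lowest tumour on the next probe (10.43) and the highest on the dimmest (8.96).

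Markers of cells that can express the ZEB genes differed between the groups in both directions. All 10 endothelial markers passed as lower, 9 of them called, with a mean level of 14.06 to 14.28 in WT and 11.58 to 12.63 in SCC. Tek, the angiopoietin receptor, gave the largest called difference of that list at -2.89. Of 10 fibroblast markers 7 passed as lower and 2 as higher, and their mean level was 13.22 to 13.32 in WT and 11.67 to 12.70 in SCC. SCC replicate 2 was the highest tumour in both lists, as it was for Zeb1. The order of the tumours for Zeb1 was that of the fibroblast list and not that of the endothelial list, and in the WT lungs the order for Zeb1 differed from both. Macrophage markers, with 2 of 6 higher and 2 lower, had a mean level of 12.59 to 13.18 in WT and 12.61 to 13.56 in SCC, and SCC replicate 2 was the lowest tumour there, as it was on the brighter Zeb2 probes but not on the dimmest. Neutrophil markers were higher, with 3 of 6 called higher and none lower, and their mean level was 10.30 to 11.29 in WT and 10.003 to 12.60 in SCC, where SCC replicate 2 was again the lowest tumour. Lymphocyte markers were lower, with 5 of 6 T cell markers and all 4 tested B cell markers called. Their mean level was 9.21 to 9.97 in WT and 7.98 to 8.50 in SCC for T cells, and 8.61 to 9.25 and 7.13 to 7.44 for B cells. All markers of the endothelial, fibroblast, macrophage, neutrophil and T cell lists were above background on every array. Their part in the ZEB results was not tested.

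**Figure D2:**
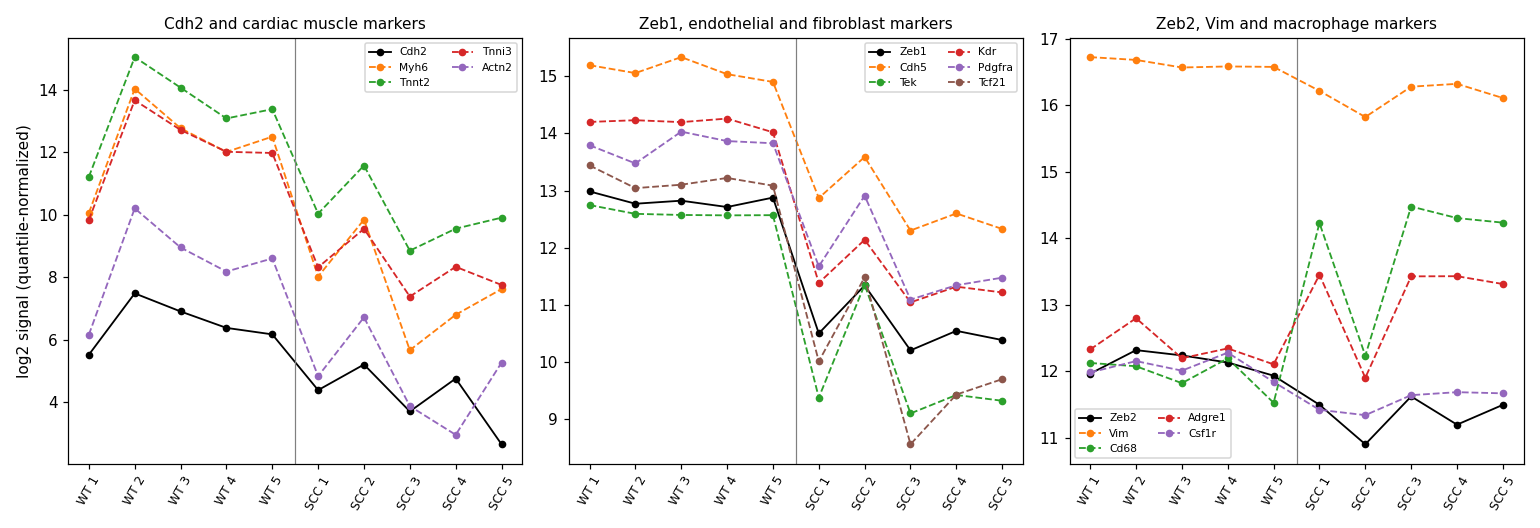
Log2 quantile-normalized signal (y axis) on each of the 10 arrays (x axis) of Cdh2 with cardiac muscle markers, Zeb1 with endothelial and fibroblast markers, and Zeb2 and Vim with macrophage markers. Lines only join the points of 1 gene, solid black for the first gene of each panel and dashed for markers except that Vim is dashed as well. SCC replicate 2 is the tumour with the highest Zeb1 (11.34) and the lowest Zeb2 on the brightest probe (10.90).

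Snai1 and Snai2, the SNAIL family repressors, were both lower in SCC by less than 2-fold. The Snai1 signal was 10.70, 10.24, 10.37, 10.64 and 10.31 in the WT lungs and 9.61, 9.90, 9.41, 9.60 and 9.52 in the tumours. The lowest lung stood 0.34 above the highest tumour, SCC replicate 2. The difference was -0.84 (SE 0.13, 1.79-fold lower, limma adjusted p = 0.000539). The Snai2 signal was 12.34, 12.17, 12.12, 12.19 and 12.15 in the WT lungs and 11.77, 11.67, 11.73, 11.41 and 11.75 in the tumours. SCC replicate 4 lay below the other tumours, which were close together. The difference was -0.53 (SE 0.09, 1.44-fold lower, limma adjusted p = 0.00139).

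Twist1, a basic helix-loop-helix factor of mesenchyme, could not be tested. It was not well above background in any WT lung and was so in 1 of 5 tumours, SCC replicate 5, the array with the raised share of probes above background. Its values were 2.00, 3.43, 2.06, 3.81 and 3.56 in WT and 1.89, 2.63, 3.43, 3.06 and 4.34 in SCC. The groups overlapped, and no fold is given because both were at background.

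Vim was lower in the tumours by a small amount. Its signal was 16.72, 16.68, 16.57, 16.58 and 16.58 in the WT lungs and 16.22, 15.82, 16.28, 16.32 and 16.11 in the tumours. The lungs were nearly alike (SD 0.071), and SCC replicate 2 was the lowest tumour. The difference was -0.48 (SE 0.11, 1.39-fold lower, limma adjusted p = 0.00495). It lost its significance with 75th percentile scaling, where it was -0.27 (limma adjusted p = 0.162).

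Fn1 was the only mesenchymal marker of the set that was higher in SCC. Its brightest probe gave 12.04, 11.94, 11.80, 11.86 and 11.69 in the WT lungs and 12.40, 12.42, 12.74, 12.54 and 12.45 in the tumours. The tumours ranged from 12.40 to 12.74 and the lungs reached 12.04. The difference was 0.64 (SE 0.10, 1.56-fold, limma adjusted p = 0.000664). The other Fn1 probes gave 0.84 (limma adjusted p = 0.000371) and 0.63 (limma adjusted p = 0.0496), and the groups overlapped on the last of these. The collagen genes Col1a1 and Col3a1, which fibroblasts make with fibronectin, were higher by 0.66 and 0.53, while 7 other fibroblast markers were lower. Col1a2, also a collagen gene of the fibroblast list, gave -0.25 (limma adjusted p = 0.0892).

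Cdh2 was lower in SCC, with a wide spread in both groups. Its signal was 5.52, 7.48, 6.91, 6.38 and 6.17 in the WT lungs and 4.39, 5.21, 3.71, 4.76 and 2.65 in the tumours. It was well above background in all 5 lungs but in only 3 of 5 tumours, so it was tested because of its level in WT, and the size of its difference rests in part on tumour values at background. The difference was -2.35 (SE 0.51, limma adjusted p = 0.00391). With the normexp background correction it was -0.61 (limma adjusted p = 0.00788), still lower but under 2-fold. N-cadherin also joins heart muscle cells, and cardiac muscle markers moved with it. Of 6 such markers 5 were called lower, and their mean level was 8.51 to 12.47 in WT and 6.10 to 8.61 in SCC. Actn2 was above background in only 3 of 5 tumours, and the groups of Actn2, Tnnt2 and Ryr2 overlapped. The alpha-myosin heavy chain gene Myh6 was 10.06, 14.03, 12.77, 12.01 and 12.50 in the WT lungs, and 8.02, 9.84, 5.67, 6.80 and 7.62 in the tumours. WT replicate 2 was the highest lung and WT replicate 1 the lowest for Cdh2, for Myh6 and for the list. No order of the tumours is given for Cdh2, since it was at background in 2 of them. Mesothelial markers were lower in SCC as well, but did not follow Cdh2 among the lungs. WT replicates 2 and 3, the highest for Cdh2, had the lowest mesothelial means, at 10.62 and 10.42. All 4 (Msln, Wt1, Upk3b, Lrrn4) were called lower, with a mean level of 10.42 to 10.96 in WT and 4.61 to 6.73 in SCC, where only Msln was above background in every tumour. Their median difference of -5.30 was -2.86 with normexp, and when every array had to be above background 1 marker was left, Msln, at -2.56. The part of either list in the Cdh2 result was not tested.

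**Figure D3:**
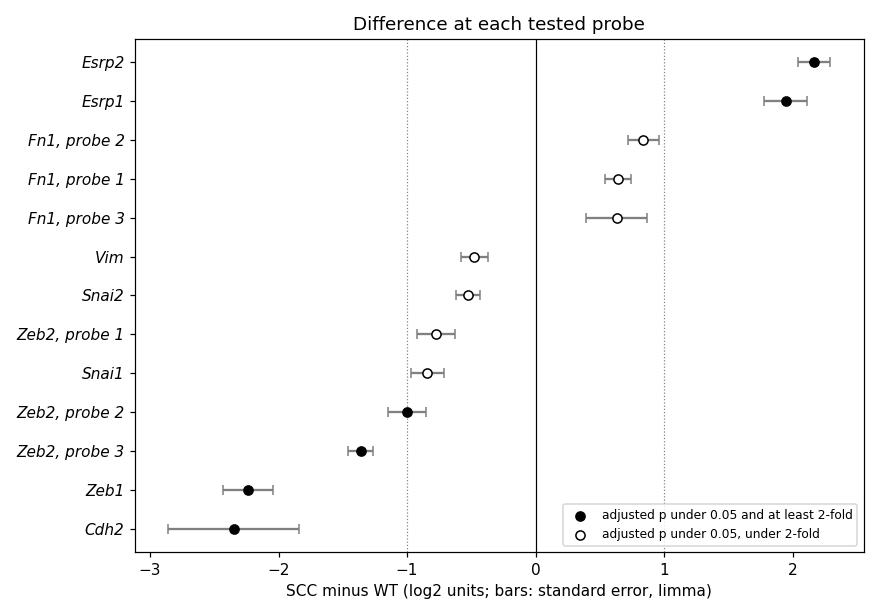
Difference between SCC and WT (log2 units, limma, bars are standard errors) at the 13 tested probes of the set, filled where the adjusted p was below 0.05 and the change at least 2-fold and open where the change was smaller. The 2 Esrp probes lie near 2, the 3 Fn1 probes between 0.63 and 0.84, and the other 8 probes lie below 0.

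For each of the 9 tested genes the exact two-sided permutation test over the 252 splits of the 10 arrays gave p = 0.00794, the smallest it allows, though for Cdh2 this rests in part on tumour values at background. Leaving out any single array kept the direction of all 9 and an adjusted p below 0.05. Slide limits this further. Only slide 2 held both groups, WT replicate 5 with SCC replicates 1 to 3. A fit with slide as a fixed block rests on the comparison within slide 2. With 1 WT array there, its p-values take the spread among WT arrays from slide 1 alone. With that block Esrp1 was 1.62 (limma adjusted p = 0.0148), Esrp2 2.05 (limma adjusted p = 0.00485), Zeb1 -2.19 (limma adjusted p = 0.0133) and Fn1 0.83 (limma adjusted p = 0.0304), and they still passed. Snai1 at -0.66 (limma adjusted p = 0.123), Snai2 at -0.42 (limma adjusted p = 0.162), Zeb2 at -0.59 (limma adjusted p = 0.22), Vim at -0.47 (limma adjusted p = 0.184) and Cdh2 at -1.74 (limma adjusted p = 0.269) kept their direction but no longer passed.

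Related genes were then compared within each array, as the log2 ratio of their signals. The change of that ratio between groups tests whether both genes changed by the same amount, not which is more abundant. In 5 pairs, p-values of the exact permutation test were adjusted over the 5. The ratio of Zeb2 over Zeb1 was -1.02, -0.45, -0.59, -0.58 and -0.94 in the WT lungs and 0.99, -0.44, 1.41, 0.65 and 1.11 in the tumours. SCC replicate 2 lay just above the highest lung, and the other 4 tumours lay well above it. The ratio was thus higher in SCC by 1.46 (exact permutation adjusted p = 0.0132), or by 1.76 without SCC replicate 2. Zeb1, at -2.24, had dropped by more than Zeb2 on its brightest probe, at -0.77. The other Zeb2 probes gave -1.001 and -1.36, so the size of the ratio change depends on the probe. Ratios with those probes, and whether the groups stay apart on them, were not tested.

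Fn1 over Vim, the matrix and the filament marker, was higher in SCC by 1.12. This ratio lay between -4.89 and -4.68 in WT and between -3.82 and -3.40 in SCC, with all tumours above all lungs. Every tumour already lay above every lung for Fn1 and below every lung for Vim. The exact permutation p (adjusted p = 0.0132) was therefore bound to be the smallest possible and adds nothing to those results. Cdh2 over Cdh1, the N-cadherin and E-cadherin pair, gave a difference of -3.12, from between -8.45 and -6.25 to between -11.90 and -9.63. With normexp the difference was -1.41. Since 2 of 5 tumours had Cdh2 at background, no significance is drawn from this pair. Cdh1 itself was higher in SCC by 0.77 (SE 0.10, limma adjusted p = 0.000156), from 13.74 to 14.06 in the lungs to 14.55 to 14.83 in the tumours.

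The remaining pairs did not pass. Snai2 over Snai1 was 0.32 higher in SCC (exact permutation p = 0.0635, adjusted p = 0.0794) with overlapping groups, and it passed when SCC replicate 2 (0.39, exact permutation adjusted p = 0.0496) or SCC replicate 4 (0.38, exact permutation adjusted p = 0.0476) was left out. Esrp2 over Esrp1 was 0.22 higher (exact permutation p = 0.167, adjusted p = 0.167), from 0.93 to 1.23 in WT and from 0.99 to 1.72 in SCC. It passed without SCC replicate 4 (0.31, exact permutation adjusted p = 0.0476). For both pairs an unequal change was neither shown nor excluded at this number of arrays.

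**Figure D4:**
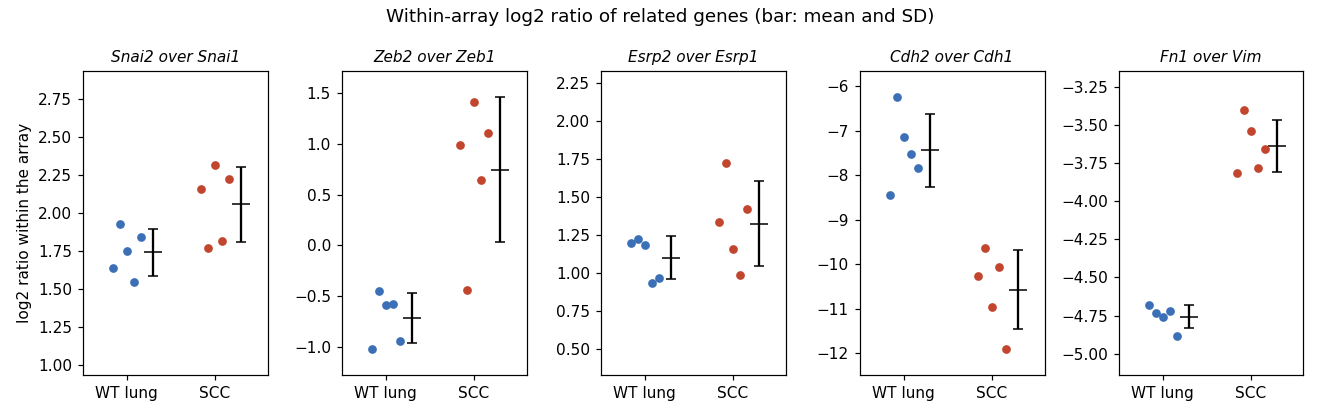
Log2 ratio of 2 related genes within each array, 1 panel per pair with its own axis range, blue for WT lungs and red for SCC, with the mean and SD of 5 arrays. The groups are apart for Zeb2 over Zeb1, Cdh2 over Cdh1 and Fn1 over Vim, and overlap for the others. For Zeb2 over Zeb1 the margin is small at SCC replicate 2, and only the brightest Zeb2 probe is shown.

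The genes around the set were followed in named lists, whose counts are to be read against the 22.4% of all tested probes that passed as higher and the 26.6% that passed as lower. Other EMT transcription factors moved in both directions. Of 14 tested, 3 passed as higher and 6 as lower, with a median difference of -0.43. Of the 3, Gsc was above background in 0 of 5 WT lungs and 4 of 5 tumours, so it was tested because of its level in SCC. Twist2, the relative of Twist1, was lower by 2.16 (SE 0.58, limma adjusted p = 0.012), or by 1.53 without SCC replicate 5, which lay at 2.75 against at least 5.68 in the other tumours, and by 0.87 with normexp. Prrx1 gave -0.38 (limma adjusted p = 0.0653) on its brightest probe and -0.52 (limma adjusted p = 0.00852) on the next. Tcf4, a partner of helix-loop-helix factors, was lower by 0.98 (limma adjusted p = 0.0027), while its dimmer probe gave 0.39 (limma adjusted p = 0.474). Sox9, a regulator of distal lung progenitors and cartilage, was higher by 5.11 and Tbx3, a lung mesenchyme factor, gave -3.20.

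Epithelial transcription factors mostly moved the other way from Zeb1 and the SNAIL genes. Of 12 tested, 10 passed as higher, 9 of them called, and 2 (Klf4 and Foxa2) as lower, with a median of 1.67. Grhl2 and Ovol2, which are known to oppose Zeb1, were higher by 1.32 (SE 0.14, limma adjusted p = 6.39e-05) and 0.62 (SE 0.16, limma adjusted p = 0.0111). A dimmer probe of Ovol2 gave 0.47 (limma adjusted p = 0.2). Ovol1 was higher by 3.32 (SE 0.33), or by 2.14 with normexp, and Elf3 by 4.01. Among 11 cadherins and catenins 3 passed as higher and 5 as lower, with the placental cadherin Cdh3, a basal epithelial gene, at 4.39 and the endothelial cadherin Cdh5 at -2.37.

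The Esrp genes were set beside other splicing regulators and transcripts whose exons they are known to control. Of 10 other splicing regulators 3 passed as higher, close to the share of all probes, and 5 as lower, with a median of -0.27. Rbm47, an epithelial RNA-binding protein, was higher by 2.13 (SE 0.13, limma adjusted p = 3.39e-06). The probes of Rbfox2, a mesenchymal splicing regulator, disagreed, at 1.01 (limma adjusted p = 0.00148) and -0.77 (limma adjusted p = 0.0215). Of 7 transcripts with exons under Esrp control, 2 passed as higher and 2 as lower. Cd44, a hyaluronan receptor, was higher by 0.85 (limma adjusted p = 0.000652), with its other probes at 1.00 and 2.17. Fgfr2 was lower by 0.58 (limma adjusted p = 0.00159), with its other probes at -0.09 (limma adjusted p = 0.658) and -0.45 (limma adjusted p = 0.101). Enah was higher by 1.22 and Numb lower by 1.08. These signals are per probe, and exon use was not measured.

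Lists around the mesenchymal markers came next. The 4 tested type III and IV intermediate filament genes, relatives of Vim, were called lower, with a median of -1.70 and Synm at -3.48. Of these, Prph was well above background in 1 of 5 tumours only, its groups overlapped, and with normexp 3 genes were called, with a median of -1.05. Of 15 other mesenchymal markers 2 passed as higher (Col1a1 and Col3a1) and 6 as lower. Their median was -0.25, or -0.10 with 75th percentile scaling, and the collagen receptor Ddr2 gave -1.56. Of 11 fibronectin receptors and partners 3 passed as higher and 5 as lower, with a median of 0.03. That median was 0.25 with 75th percentile scaling and 0.16 without SCC replicate 2. Itga5, the chain of the main fibronectin receptor, gave 0.38 (limma adjusted p = 0.0937), and it passed without SCC replicate 2 at 0.54 (limma adjusted p = 0.00345). Tnc, a matrix glycoprotein, was higher by 2.69 and Itga8 lower by 3.36. Of 11 TGF-beta inducers and SMADs 2 passed as higher and 4 as lower, with a median of 0.01, so this list stood near all tested probes. Tgfb1, a ligand that can induce EMT, gave 0.50 (limma adjusted p = 0.0772) and passed without SCC replicate 2 at 0.72 (limma adjusted p = 0.000156). Of the other ligands, Tgfb2 was lower by 1.43 (limma adjusted p = 0.000124) and Tgfb3 gave -0.02 (limma adjusted p = 0.895). Met was higher by 1.36 and its ligand gene Hgf lower by 1.64.

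Several of these partners of the set also no longer passed with slide as a fixed block. Cdh1 was then 0.71 (limma adjusted p = 0.0506), Cd44 0.93 (limma adjusted p = 0.0563), Ovol2 0.73 (limma adjusted p = 0.121) and Rbfox2 0.99 (limma adjusted p = 0.103). Tcf4 was -0.93 (limma adjusted p = 0.152), Fgfr2 -0.33 (limma adjusted p = 0.24) and Twist2 -1.57 (limma adjusted p = 0.324). Grhl2, Ovol1 and Rbm47 still passed with that block.

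**Figure D5:**
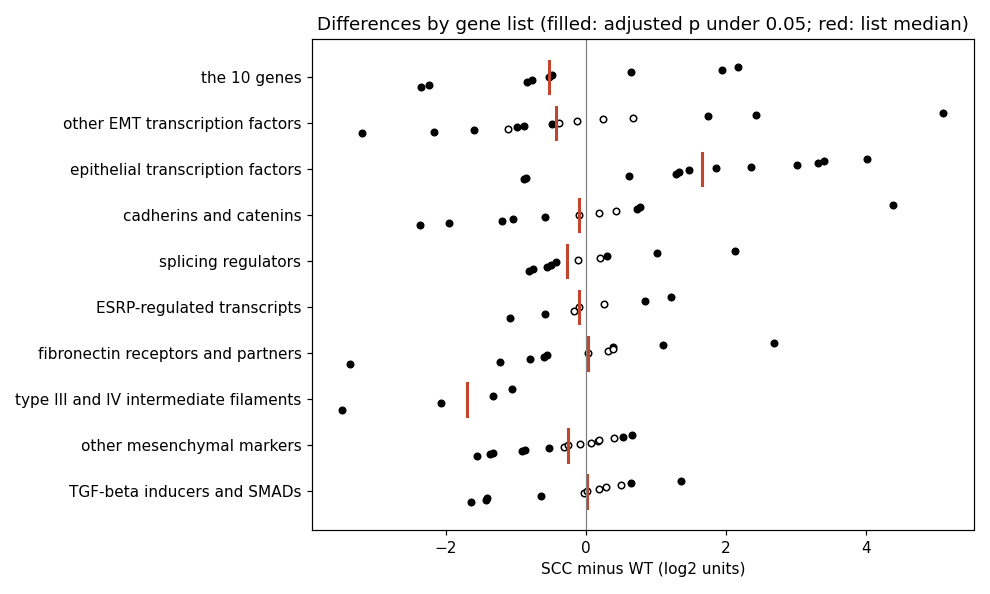
Difference between SCC and WT (log2 units) of each tested gene in the set and in 9 lists around it, filled where the limma adjusted p was below 0.05, with the list median in red. Epithelial transcription factors have a median of 1.67 and intermediate filament genes of -1.70, and the other lists lie closer to the median of all tested probes, -0.09.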

How the data were processed

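The sample titles gave the groups and replicate numbers. Per the file headers, the authors scanned the arrays with Agilent Feature Extraction 12.0.0.7, and the deposited files hold for each spot a background-subtracted processed intensity, raw median intensities and quality flags. A matrix of log2 values, deposited by the authors, correlated with the quantile-normalized log2 intensities at r = 0.9999 on every array and was used to choose the probe of each gene. Control and outlier-flagged spots were dropped, spots of a probe were averaged as log2 intensity, and 41174 probes were quantile-normalized. A probe was above background where at least 0.5 of its spots were flagged so, and entered the test when above background on 4 or more of the 5 arrays in either group. No probe was saturated. limma 3.58.1 (R 4.3.3) was fitted over all 10 arrays without covariates, with Benjamini-Hochberg adjustment over 30374 probes. Every adjusted p of a single probe is from limma. The number of arrays limits the precision.

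Accessions were named through a RefSeq table (GRCm38.p6), which gave a symbol to 28223 probes (68.5%). The array annotation uses mm9, so no probe coordinates are given. The 10 genes, the lists and the tests were chosen with earlier results of these data known. The genes named are the 10 genes, chosen partners, and of each list the called genes with the largest differences in either direction, of which only some are printed. Alternatives were the scaling, normexp background correction (offset 50, on the spots' median intensity), the deposited matrix, filters on dim probes, slide or replicate as a block, a t-test, the next-brightest probe, and leaving out each array. The fit was tested on simulated data. Prrx2, Grhl3, Qki and Rtkn2 had no named probe, and Gfap and Pax5 were not tested.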

Additional observations from a re-analysis of the deposited data

Results flagged for a closer look

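In 114 groups of 5 arrays examined, 14 held an array far from the others, by the gap to its nearest neighbour over the range of the group, with a critical value of 0.71. Chance flags about 1 in 20 groups. Among the set, Snai2 in SCC replicate 4 was 11.41 against 11.67 in the next tumour (0.727), and the dimmer Zeb2 probes were low in WT replicate 1 (0.721) and in WT replicate 5 (0.745).

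SCC replicate 2 accounted for 7 of the 14. It was high for Tcf4 (0.752) and the cadherin and catenin list (0.741), and low for Rbfox2 (0.88), Tgfb1 (0.767) and the macrophage (0.843), neutrophil (0.93) and squamous (0.882) lists. WT replicate 4 was low for Ovol1 (0.762) and for the smooth muscle list (0.892). SCC replicate 5 was low for Twist2 (0.86) and high in its share of probes above background (0.859).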

How the results depend on the processing

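Over the alternatives, 177 of the results for the 9 genes kept their direction and their side of the threshold and 6 no longer passed. These were Vim with 75th percentile scaling and Vim, Snai1, Snai2, Zeb2 and Cdh2 with slide as a fixed block, and none reversed. The count of the set passing the adjusted p alone was then 4 in place of 9, marker genes called fell from 55 to 33, and called probes from 6954 to 2989. With slide as a random block, which also uses comparisons between slides, 4 genes of the set were called and 9 passed. Probes called numbered 14878 without a fold requirement and 3969 with normexp. With normexp, Esrp2 over Esrp1 passed at 0.40 (exact permutation adjusted p = 0.00992). The causes were not tested. Leaving out each array gave 6385 to 8135 called probes, 4 called and 9 passing genes of the set, 36 to 42 called genes in the lists around EMT, 49 to 59 called markers, and ratio changes of 0.25 to 0.39 for Snai2 over Snai1, 1.30 to 1.76 for Zeb2 over Zeb1, 0.12 to 0.31 for Esrp2 over Esrp1, -3.37 to -2.79 for Cdh2 over Cdh1 and 1.06 to 1.16 for Fn1 over Vim. Without SCC replicate 2 the called probes were 8135.

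Replicate numbers did not pair the samples, since deviations of same-numbered arrays correlated at -0.103 to 0.00867. With the replicate block 6571 probes were called, with 4 called and 9 passing genes of the set, and Ovol2 no longer passed (limma adjusted p = 0.0565). Sign-flip tests of Zeb2 over Zeb1 (1.46), Cdh2 over Cdh1 (-3.12) and Fn1 over Vim (1.12) then gave an adjusted p of 0.104 each, in a design whose smallest permutation p is 0.0625. Dim signal limits Twist1 and Cdh2.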
